A study of Mus musculus with 12 samples.

Results

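The genes described here are 9 genes of insulin signalling and glucose transport in mouse fat: Insr, Irs1, Irs2, Pik3r1, Akt2, Foxo1, Slc2a4, Slc2a1 and Tbc1d4. They were taken by symbol from the authors' 2 deposited comparison tables, where all 9 were found once each among 16738 genes for inguinal white fat (iWAT, a fat pad under the skin of the groin) and among 15363 genes for brown fat (BAT). The labelled libraries are KO females, WT females, KO males and WT males, with 3 iWAT libraries in each of the 4 groups. The labels describe no BAT libraries. The animals of the iWAT libraries are all C57BL/6 mice that were given a high-fat diet and kept at room temperature. The KO mice lack NDUFS4, an accessory subunit of respiratory complex I, in adipocytes. The driver of that deletion, the age of the mice and the number of animals behind a library were not given in the sources used here.

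Insulin acts on fat cells through its receptor, a tyrosine kinase that phosphorylates the insulin receptor substrates. These dock phosphoinositide 3-kinase, whose lipid product activates AKT. In adipocytes AKT keeps FOXO transcription factors out of the nucleus and phosphorylates a Rab GTPase-activating protein that otherwise retains vesicles loaded with the glucose carrier GLUT4, so that GLUT4 reaches the cell surface and glucose enters.

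The value read for each gene is the log2 interaction of the authors' limma fit, the KO effect in females minus the KO effect in males, so a value above 0 means a KO to WT ratio that is larger in females. The order of the sexes comes from the name of the table. The effect within either sex was not analysed here, so a value above 0 can stand for a higher level in KO females, a lower one in KO males or a difference between the WT groups. In whole tissue, fewer cells of a type and less RNA per cell cannot be told apart. Over all genes, the median interaction was 0.13 in iWAT and 0.01 in BAT. Ndufs4 itself was at 0.89 ± 0.38 in iWAT (standard error, adjusted p = 0.169 from limma) per the authors' deposited table, which does not check the genotype labels because it compares sexes. The depth of the libraries is unknown here, and p-values measure the spread between libraries.

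Did loss of NDUFS4 act differently on these genes in females and males? Among the 9 genes, the insulin receptor gene alone passed the test of that difference in iWAT. Insr had an interaction of 1.51 ± 0.36 (standard error, limma adjusted p = 0.0377) per the authors' deposited table, which equals a KO to WT ratio 2.84 times as large in females as in males (95% confidence interval 1.67 to 4.84). This was 1 of 9 genes past an adjusted p of 0.05, against 4.75% of all genes in iWAT and 1.06% in the upward direction. The receptor substrates Irs1 and Irs2 and the glucose carrier gene Slc2a4 also had values near 1, without passing. At an unadjusted p of 0.05 the count was 5 of 9 genes, 4 above 0 and 1 below, against 24.5% of all genes (11.9% above 0 and 12.6% below). With values centred on the median over all genes, the count was 3 of 9 (Insr, Irs1 and Tbc1d4, 2 above and 1 below), against 23.7% of all genes. Of the 9 genes, 6 lay above 0 in each depot, where 55.9% of all genes did so in iWAT and 51.0% in BAT.

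Insr encodes the insulin receptor and lies on the minus strand of chromosome 8, 3172061 to 3329617 (GRCm39). It stood at rank 406 of all iWAT genes by p, and 91.2% of genes had a lower interaction. At the error of Insr, an interaction of 1.33 would have been needed to pass, so the call had a narrow margin. After the median of all genes was subtracted, Insr was at 1.38 with an adjusted p of 0.0412, and 5.74% of all genes passed on that scale, 0.645% above 0 and 5.09% below. In BAT, Insr was at 0.53 ± 0.27 (adjusted p = 0.771 from limma) per the authors' deposited table.

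The tables hold fat tissue by their defining genes, with adipocyte markers at a mean log2 expression of 6.40 to 12.49 in iWAT and brown and beige markers at 5.78 to 12.54 in BAT. Markers of other cells also stood away from 0 in the iWAT contrast. Of 9 T cell markers 8 passed below 0, as did 4 of 7 B cell markers, with medians of -8.17 and -8.07. Over all iWAT genes 3.69% passed below 0 and 1.06% above. The T and B cell markers had low levels, with median mean log2 expressions of 2.13 and 1.78. At low levels, sizes depend on how the fit treats low counts. All 8 skeletal muscle markers lay above 0 (median 3.70, none past the threshold), as did all 7 brown and beige adipocyte markers (median 3.20, 1 past it) and all 6 mammary epithelial markers (median 1.64, none past it). The adipocyte markers had a median of 0.45, with 8 of 8 above 0 and none past the threshold, and 6 of 8 above the median of all genes. The macrophage, endothelial, and fibroblast and progenitor markers had medians of -0.03, 0.57 and 0.55 with none past the threshold, and of 4 Schwann cell markers 1 passed below 0. These lists share the table with every iWAT value of the 9 genes, and their part in those values was not tested.

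**Figure D1:**
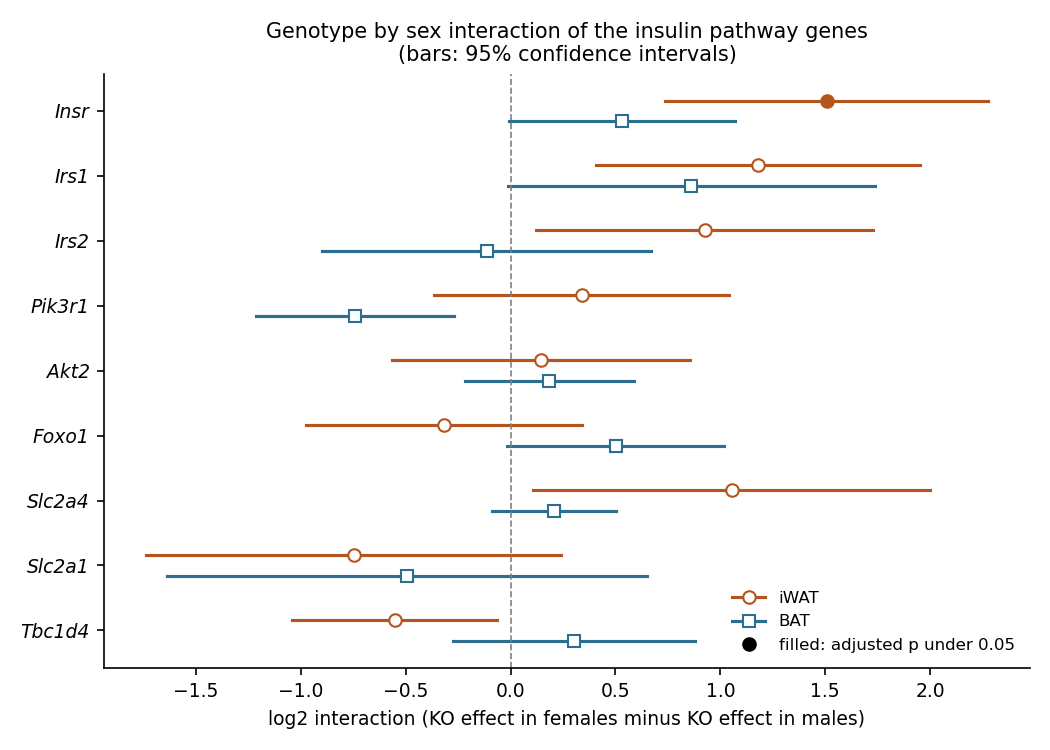
Log2 interaction (x axis, KO effect in females minus KO effect in males) of each of the 9 genes, with 95% confidence intervals as bars; circles are iWAT and squares BAT, and a filled symbol marks an adjusted p under 0.05. Insr in iWAT, at 1.51, is the one filled symbol, and the intervals of Irs1, Irs2 and Slc2a4 in iWAT also lie above 0 before adjustment. Those of Tbc1d4 in iWAT (-1.04 to -0.06) and Pik3r1 in BAT (-1.21 to -0.27) lie below 0 before adjustment.

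The substrates that carry the signal from the receptor both lay above 0 in iWAT, and neither passed. Irs1 (chromosome 1, 82210822 to 82269137, minus strand) is a main docking protein in fat cells. It was at 1.18 ± 0.36 (adjusted p = 0.0690 from limma, 95% interval 0.41 to 1.95) per the authors' deposited table. Irs2 (chromosome 8, 11034681 to 11058458, minus strand), the second widely expressed substrate, was at 0.93 ± 0.37 (adjusted p = 0.148, interval 0.12 to 1.73). In BAT the authors' deposited table gave Irs1 0.86 ± 0.43 and Irs2 -0.11 ± 0.39 (limma adjusted p = 0.771 and 0.980). Both substrate genes therefore had intervals of several-fold width, and a difference between them was not tested.

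The start regions of Irs1 and Irs2 are shown because these partner genes of the receptor had like values in iWAT. Each window runs from 250 bases before to 50 bases after the annotated start, 5′ to 3′ on the gene's strand, from RefSeq on build GRCm38.p6 (chr1:82291390-82291689 and chr8:11008880-11009179, both minus strand), which is older than the build of the expression tables. Capitals mark the E-box CACGTG and the GC box GGGCGG, or CCGCCC on the other strand.
Irs1: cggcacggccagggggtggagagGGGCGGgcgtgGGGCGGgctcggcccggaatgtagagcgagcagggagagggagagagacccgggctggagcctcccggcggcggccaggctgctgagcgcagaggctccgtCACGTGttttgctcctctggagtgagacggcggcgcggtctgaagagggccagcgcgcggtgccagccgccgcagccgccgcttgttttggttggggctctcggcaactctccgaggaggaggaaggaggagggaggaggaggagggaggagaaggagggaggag
Irs2: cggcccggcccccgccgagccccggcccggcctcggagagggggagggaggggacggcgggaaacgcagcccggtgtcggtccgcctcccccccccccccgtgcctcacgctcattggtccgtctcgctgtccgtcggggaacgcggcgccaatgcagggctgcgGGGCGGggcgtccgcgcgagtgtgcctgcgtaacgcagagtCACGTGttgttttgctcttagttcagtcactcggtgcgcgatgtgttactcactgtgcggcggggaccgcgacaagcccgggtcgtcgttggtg
Each window held 1 E-box, which starts at position -115 in Irs1 and -44 in Irs2, counted from the annotated start. Of 32851 such windows over all genes, 7.15% held that motif on either strand. GC boxes numbered 2 in Irs1 and 1 in Irs2, and 35.7% of all windows held one. The core letters bound by FOXO factors, GTAAACA or TGTTTAC, were in neither window and in 3.65% of all windows. Windows were found for 7 of the 9 genes, 11 windows in all. A match of letters describes the sequence only.

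A long noncoding RNA gene on the opposite strand, 9530052E02Rik, overlaps the Irs2 gene by 609 bases and was picked with its value in view. In the authors' deposited table it had an interaction of -4.94 ± 1.04 in iWAT (adjusted p = 0.0357 from limma), opposite in sign to Irs2. Its mean log2 expression was -0.17, against 7.50 for Irs2. Whether the counting used strand was not given in the sources used here, so reads in the shared stretch cannot be told apart. Inside Foxo1 and Pik3r1 lie unconfirmed transcripts (Gm38034 and Gm36638) at least 6.86 log2 units below the host gene in iWAT, neither of which passed.

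Of the 9 genes, Pik3r1 and Akt2 act directly below the substrates, and neither passed in either depot. Pik3r1 (chromosome 13, 101817071 to 101904725, minus strand) encodes the regulatory subunits that bind phosphoinositide 3-kinase to the substrates. The authors' deposited table gave it 0.34 ± 0.33 in iWAT and -0.74 ± 0.23 in BAT (limma adjusted p = 0.545 and 0.527). Its BAT value had an unadjusted p of 0.00295, the smallest of the 9 genes there and rank 86 of all BAT genes. Akt2 (chromosome 7, 27290977 to 27340251, plus strand) encodes the AKT form most closely tied to glucose uptake. It was at 0.15 ± 0.33 in iWAT and 0.19 ± 0.20 in BAT (adjusted p = 0.812 and 0.921) per the authors' deposited table, and at 0.02 in iWAT after subtraction of the median over all genes. For Akt2 the 95% interval in iWAT ran from -0.56 to 0.86, which leaves room for a sizeable interaction in either direction.

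Foxo1 (chromosome 3, 52175757 to 52260642, plus strand) encodes the transcription factor that AKT excludes from the nucleus. It was at -0.32 ± 0.31 in iWAT and 0.50 ± 0.25 in BAT (limma adjusted p = 0.542 and 0.774) per the authors' deposited table. The sign thus differed between the depots, while neither value passed.

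The glucose carriers and the Rab regulator pointed in different directions in iWAT, none past the threshold. Slc2a4 (chromosome 11, 69833365 to 69839014, minus strand) encodes GLUT4, the carrier that insulin brings to the surface. Its interaction was 1.05 ± 0.44 in iWAT and 0.21 ± 0.15 in BAT (limma adjusted p = 0.161 and 0.855) per the authors' deposited table. Slc2a1 (chromosome 4, 118965908 to 118995180, plus strand) encodes GLUT1, the carrier of basal uptake in many cell types. It was at -0.75 ± 0.46 in iWAT and -0.49 ± 0.56 in BAT (adjusted p = 0.330 and 0.932) per the authors' deposited table. Tbc1d4 (chromosome 14, 101679796 to 101846627, minus strand) encodes the Rab GTPase-activating protein that AKT phosphorylates. It was at -0.55 ± 0.23 in iWAT and 0.30 ± 0.28 in BAT (adjusted p = 0.156 and 0.899) per the authors' deposited table. With the smallest error of the 9 genes in iWAT, Tbc1d4 would have passed at a size of 0.85, whereas Slc2a1, with the widest, needed 1.72.

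In BAT none of the 9 genes passed, as in all but 0.0130% of the genes of that table (2 of 15363). At an unadjusted p of 0.05, limma's test took 1 of the 9, Pik3r1, against 6.51% of all genes. To pass there, an interaction would have had to reach between 0.83 for Slc2a4 and 3.19 for Slc2a1 in size. The BAT table covers groups that the labels do not describe, and its skeletal muscle markers lay below 0 (8 of 8, median -3.30, none past the threshold). Of the 9 T cell markers 4 were measured there (median 0.18), and 4 of the 7 B cell markers (median -0.47). The macrophage, fibroblast and progenitor, endothelial and Schwann cell markers had BAT medians of -0.73, -0.81, -0.26 and -0.33. The adipocyte markers were at 0.21 and the brown and beige markers at 0.09. Of the 6 mammary epithelial markers 0 were measured in BAT. No marker of the other lists passed there. Their part in the BAT values was not tested.

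The difference between the depots was tested for each gene as the iWAT interaction minus the BAT interaction, with the tables taken as independent. None of the 9 genes passed an adjusted p of 0.05 over the 14502 genes in both tables, where 0.248% did. At an unadjusted p of 0.05 the count was 4 of 9, against 15.7% of all shared genes. For Pik3r1 the difference was 1.08 (95% interval 0.26 to 1.90, adjusted p = 0.188 by a Welch-type test on the limma errors). For Insr it was 0.97 (interval 0.07 to 1.88, adjusted p = 0.281 by the same test). Tbc1d4 at -0.85 (interval -1.59 to -0.12) and Foxo1 at -0.82 (interval -1.63 to -0.01) lay on the other side. If depots of the same animals share error with a correlation of 0.5, these 4 genes would pass, with adjusted p of 0.0150, 0.0410, 0.0234 and 0.0493 in the order given. Under that setting 2001 of the 14502 shared genes would pass, and with a correlation of -0.5 the count would be 0. The calls thus rest on an unknown pairing.

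The levels of the 9 genes were compared per kilobase of exon, as the authors' mean log2 expression over all libraries of a table minus the log2 of the exon length. Slc2a4 was the most abundant per length in both depots, at 5.40 in iWAT and 6.53 in BAT, and Slc2a1 the least, at 2.41 and 1.54. In iWAT the order below Slc2a4 was Pik3r1 at 5.09, Irs2 at 4.84, Foxo1 at 4.34, Akt2 at 3.91, Tbc1d4 at 3.59, Irs1 at 3.19 and Insr at 2.42. The 2 substrates thus lay 1.64 log2 units apart in iWAT, with Irs2 the higher. In BAT, Irs2 followed Slc2a4 at 4.56, with Akt2 at 4.29, Foxo1 at 3.95, Pik3r1 at 3.87, Tbc1d4 at 2.80, Insr at 2.04 and Irs1 at 1.76 below it. Insr and Slc2a1 were within 0.01 of each other in iWAT, and the spread over libraries that would separate neighbours was not analysed here. Set across the tables, the mean log2 expression of Irs1 was 1.43 higher and that of Pik3r1 1.22 higher in iWAT than in BAT, while that of Slc2a4 was 1.13 lower. The tables were normalised separately, so no test was made.

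**Figure D2:**
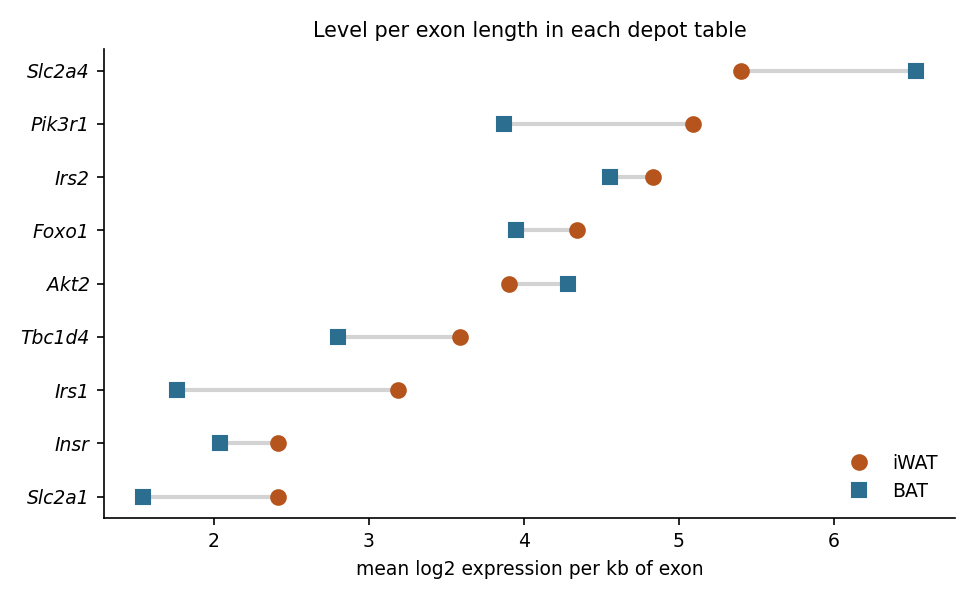
Mean log2 expression per kilobase of exon (x axis) of the 9 genes, ordered by their level in iWAT; circles are iWAT, squares BAT, and the grey line joins both values of a gene, with no error since values per library were not used. Slc2a4 is highest in both depots and Slc2a1 lowest, and Irs1, Pik3r1 and Slc2a4 have the widest gaps between depots.

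Paralogs of the 9 genes were set beside them in iWAT, chosen by family and named with their values known. Igf1r, the receptor for insulin-like growth factor closest to Insr, was at 0.15 ± 0.35 (limma adjusted p = 0.820) per the authors' deposited table, where Insr was at 1.51. The regulatory subunit genes Pik3r2 and Pik3r3 were at 0.03 ± 0.47 and -0.25 ± 0.40, and Akt1 at -0.29 ± 0.26 per the authors' deposited table. Foxo4 was at 1.26 ± 0.36 (adjusted p = 0.0590) and Foxo3 at -0.18 ± 0.27 (adjusted p = 0.711) per the authors' deposited table. Tbc1d1, the close relative of Tbc1d4 best known from muscle, was at -1.63 ± 0.46 (adjusted p = 0.0559) per the authors' deposited table, and it passed at 0.0411 after subtraction of the median over all genes. None of these paralogs passed as deposited, and differences between paralogs of the same libraries were not tested. Among the other carriers, Slc2a3, which encodes a high-affinity carrier of neurons and leukocytes, was at -2.32 ± 0.82 (adjusted p = 0.104) per the authors' deposited table. The remaining ones measured in iWAT (Slc2a5, Slc2a8, Slc2a10, Slc2a12 and Slc2a13) lay above 0, between 0.05 and 3.44, and did not pass. Slc2a10 lay at -0.08 after subtraction of the median over all genes.

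**Figure D3:**
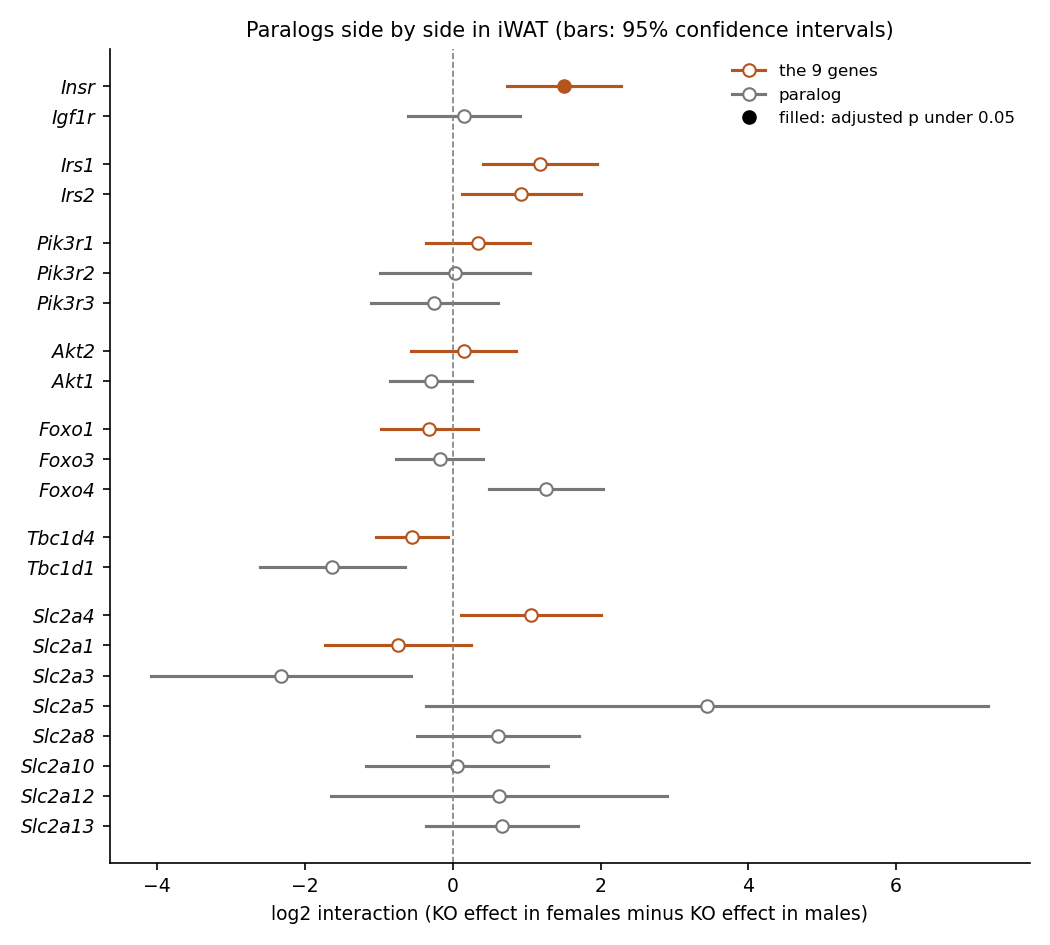
Log2 interaction in iWAT (x axis, KO effect in females minus KO effect in males) with 95% confidence intervals as bars, for each of the 9 genes and the paralogs listed with it; a filled circle marks an adjusted p under 0.05. Insr at 1.51 is filled while Igf1r is at 0.15, and Tbc1d1 at -1.63 lies further below 0 than Tbc1d4 at -0.55.

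The wider pathway was read through 6 lists that hold none of the 9 genes, by counts and medians with no test of a list as a set. Of 11 measured receptor adaptors none passed in either direction by limma in iWAT, with a median of 0.15. At an unadjusted p of 0.05 there were 3 below 0 and 0 above, against 12.6% and 11.9% of all genes. Those with the smallest p were Cbl, a ubiquitin ligase recruited to the receptor, at -0.81 ± 0.29, and Enpp1, an inhibitor of the receptor, at -2.13 ± 0.95 (adjusted p = 0.116 and 0.187) per the authors' deposited table. Grb2, the adaptor that links receptors to RAS, was the third, at -0.71 ± 0.33 in iWAT and -0.58 ± 0.29 in BAT (adjusted p = 0.204 and 0.774) per the authors' deposited table. Among 24 genes of the phosphoinositide 3-kinase, AKT and mTOR branch 1 passed, below 0, against 3.69% of all genes below 0, and the median was 0.25 with 16 above 0 (14 above the median of all genes). At an unadjusted p of 0.05 this list had 7 genes above 0 and 2 below, against 11.9% and 12.6% of all genes. The gene that passed was Pik3cd, the catalytic subunit found mainly in leukocytes, at -3.65 ± 0.76 (adjusted p = 0.0357) per the authors' deposited table. Among 19 negative regulators 1 passed, also below 0, against the same 3.69% of all genes, with a median of 0.15 and 10 above 0. At an unadjusted p of 0.05 the negative regulators had 3 above 0 and 5 below, against 11.9% and 12.6% of all genes. The one that passed was Pik3ip1, an inhibitor of phosphoinositide 3-kinase, at -1.84 ± 0.43 (adjusted p = 0.0368) per the authors' deposited table. The T and B cell markers, with medians of -8.17 and -8.07, lay below 0 with Pik3cd and Pik3ip1, and their part in these values was not tested.

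Vesicle traffic and glucose capture gave no passing gene in iWAT. Of 23 genes of GLUT4 vesicle traffic 17 were above 0, or 12 above the median of all genes, with a list median of 0.14. By limma 4 reached an unadjusted p of 0.05, against 24.5% of all genes, 3 of them above 0 (11.9% of all genes) and 1, Tbc1d1, below (12.6%). Ralgapa2, a subunit of the complex that restrains the GTPase RalA, was at 0.95 ± 0.31 (adjusted p = 0.0879) per the authors' deposited table. Myo1c, a motor of GLUT4 vesicles, was at 0.25 ± 0.22 in iWAT and 0.75 ± 0.23 in BAT (adjusted p = 0.506 and 0.494) per the authors' deposited table. Of 14 other carriers and glucose capture genes 11 were above 0, with a median of 0.62 and, by limma, 3 above 0 and 1 below at an unadjusted p of 0.05, against the same shares of all genes. Hk2, the hexokinase that insulin induces in fat and muscle, was at 1.42 ± 0.48 in iWAT and 0.63 ± 0.20 in BAT (adjusted p = 0.0944 and 0.519) per the authors' deposited table. Gys1, glycogen synthase of muscle and fat, was at 1.47 ± 0.43 in iWAT and 0.34 ± 0.16 in BAT (adjusted p = 0.0619 and 0.756) per the authors' deposited table. Slc2a5, the fructose carrier, was at 3.44 ± 1.77 in iWAT and 3.66 ± 1.26 in BAT (adjusted p = 0.245 and 0.624) per the authors' deposited table, at a mean log2 expression of -0.07 and 1.39, where sizes depend on how the fit treats low counts.

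Genes that FOXO factors or insulin are known to control had values above 0 in iWAT for 18 of 20 (17 above the median of all genes), with a list median of 0.70, where 55.9% of all genes were above 0. The list was not divided by whether insulin or FOXO raises or lowers a gene, so this count gives no direction of signalling. Of these 20, 1 passed by limma above 0, against 1.06% of all genes, and at an unadjusted p of 0.05 the count was 7 above 0 and 1 below, against 11.9% and 12.6% of all genes. The gene that passed was Cdkn1a, the cell cycle inhibitor p21, at 1.66 ± 0.36 in iWAT (adjusted p = 0.0357) and -0.37 ± 0.27 in BAT (adjusted p = 0.869) per the authors' deposited table. The iWAT minus BAT difference of Cdkn1a was 2.03 (95% interval 1.11 to 2.95, adjusted p = 0.0449 on the limma errors), which would not pass if the depots' errors were correlated at -0.5 (adjusted p = 0.408). The muscle and brown and beige markers lay above 0 beside this list (medians 3.70 and 3.20), and their part in it was not tested. In BAT none of the 108 genes measured in the 6 lists passed by limma. Of those 108, 7 reached an unadjusted limma p of 0.05 above 0 and 3 below, against 3.33% and 3.18% of all BAT genes. BAT list medians ran from -0.26 in the negative regulators to 0.34 in the other carriers and glucose capture genes.

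**Figure D4:**
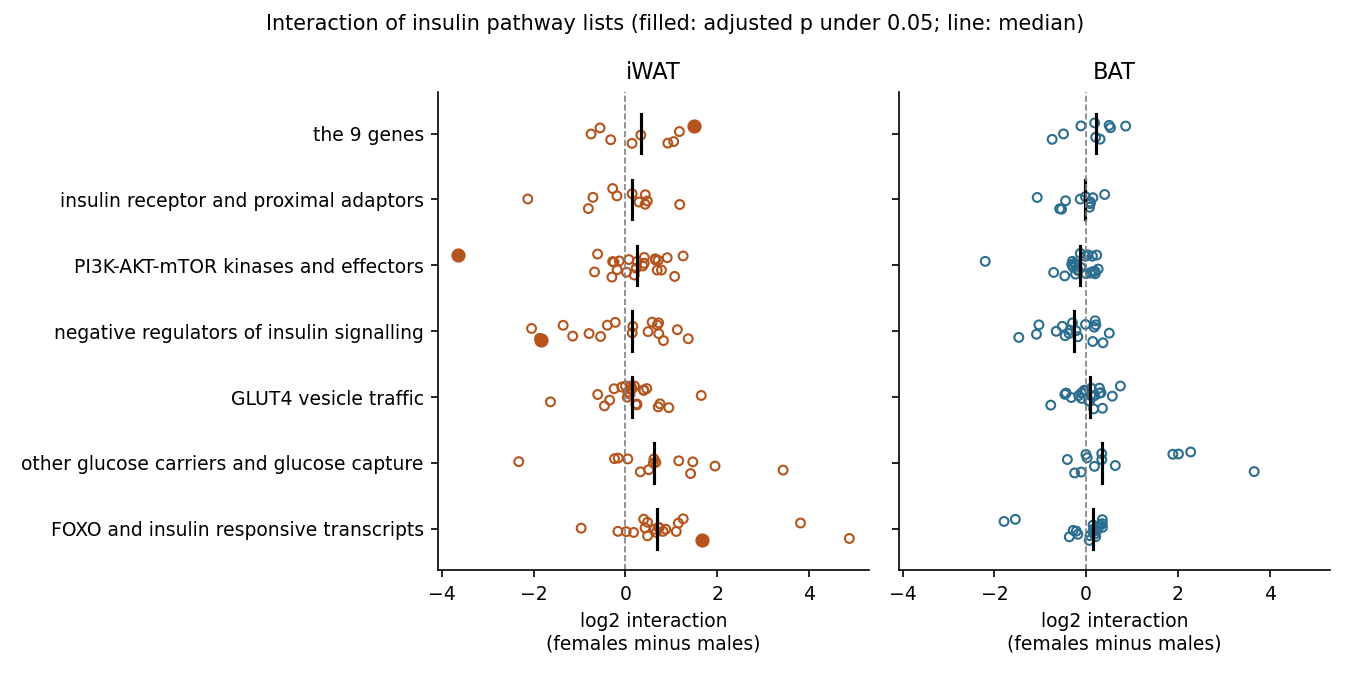
Log2 interaction (x axis, KO effect in females minus KO effect in males) of every measured gene of the 9 genes and of the 6 pathway lists, iWAT on the left and BAT on the right; each circle is a gene, filled where the adjusted p is under 0.05, and the black line is the median of the list. In iWAT the filled genes are Insr, Pik3cd, Pik3ip1 and Cdkn1a, and the BAT panel has none.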

How the data were processed

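RNA from whole fat was sequenced, and the authors deposited a limma comparison table for each depot. Per the submitters' processing notes, reads were handled with featureCounts and limma on build GRCm39; versions, aligner, annotation, strand setting and offsets were not given in the sources used here. Per the file headers, the deposited columns are the log2 interaction, the mean log2 expression, the t-statistic (a score) and the p-value with its adjusted form. The adjusted p equalled a Benjamini-Hochberg adjustment of the deposited p over all genes of the table.

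The 48 columns of library values, 12 in each of 4 tables, carry names that match no label and were used in no step, so values per library, depth and covariation are not reported, and the planned fit within each sex was not run. The authors' interaction is the only contrast used. The standard error was the log2 interaction divided by t, and the deposited t and p gave 13.4 total degrees of freedom in iWAT and 33.9 in BAT, used for 95% intervals. Depot differences were divided by the root of both squared errors added, with Welch-Satterthwaite degrees of freedom and adjustment over the genes in both tables. The threshold was an adjusted p of 0.05.

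Exon lengths are the union of exons in GENCODE M21 models matched by Ensembl ID, all 9 genes matching. Summed as linear values, mean expression came to 956040 in iWAT and 991827 in BAT, as a scale of CPM would give; the unit is not stated. Members, lists and markers were chosen with earlier results of these data known. The text names the 9 genes and, from each pathway list, the genes past the threshold or otherwise the 3 with the smallest p in either table; paralogs, 9530052E02Rik and the other overlapping transcripts were added after values were seen. The p adjustment, the degrees of freedom and the depot difference were tested on simulated data. Errors of the depots were independent there, so the simulation does not cover paired depots. All steps were run in Python 3.11.15, with scipy 1.17.1, numpy 2.4.6 and pandas 2.3.3 for the values and matplotlib 3.10.9 for the figures.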

Additional observations from a re-analysis of the deposited data

Results flagged for a closer look

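In iWAT the KO effect differed between females and males for 5 genes named here, by the interaction of the authors' limma fit. In the authors' deposited table these were Insr at 1.51 (adjusted p = 0.0377), Cdkn1a at 1.66 (adjusted p = 0.0357), Pik3cd at -3.65 (adjusted p = 0.0357), Pik3ip1 at -1.84 (adjusted p = 0.0368) and the noncoding 9530052E02Rik at -4.94 (adjusted p = 0.0357). Over all iWAT genes 4.75% passed, 1.06% above 0 and 3.69% below. Of the 9 genes, 1 passed, and 9530052E02Rik was picked with its value in view, at a mean log2 expression of -0.17. Cdkn1a, Pik3cd and Pik3ip1 were the only genes to pass in iWAT among the 113 of the 6 pathway lists. They are named because they passed, so their number is no result about the pathway. The interaction of Cdkn1a also differed between the depots, by 2.03 for iWAT minus BAT (adjusted p = 0.0449 on the limma errors). With errors of the depots correlated at -0.5 it would not pass (adjusted p = 0.408 by the same test). It was the 1 gene to pass among 108 list genes measured in both depots. Of these 108, 19 reached an unadjusted p of 0.05 by that test, against 15.7% of all shared genes. Single libraries that stand apart were not looked for, since values per library were not used.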

How the results depend on the processing

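Insr kept its direction and its call in iWAT under all 5 alternatives, with adjusted p from 0.0356 to 0.0412 (limma p-values, Benjamini-Hochberg). The threshold of 0.10 and the size of at least 1 could not undo the call of a gene at 1.51 that had passed. Filters on level and gene type changed only the number of genes adjusted over. Subtracting the median of all genes was the only alternative that changed the value of Insr, to 1.38. The number of iWAT genes past the threshold, 795 (177 above 0 and 618 below), became 2027 at a threshold of 0.10; subtracting the median of all genes gave 960, 108 above 0 and 852 below. Irs1 passed at the threshold of 0.10, as did Foxo4, Tbc1d1, Ralgapa2, Hk2 and Gys1. The number of genes that differed between the depots was 36 of 14502. It became 235 at a threshold of 0.10, 72 with each table centred on its median, 2001 with errors correlated at 0.5, and 0 with errors correlated at -0.5 (1284 at an unadjusted p of 0.05). With a correlation of 0.5, Insr, Pik3r1, Foxo1, Tbc1d4, Cbl and Pik3cd passed as well. Whether the depots come from the same animals was not given in the sources used here. Of 288 values of single genes under an alternative, 275 stayed on the same side of the threshold, 12 came to pass and 1 no longer passed, and none turned its direction. Only centring changes a value, so under the other alternatives the direction could not turn. A threshold of 0.10 cannot remove a call and a size filter cannot add one, so part of this count was fixed in advance. Slc2a10, which changed sign when centred in iWAT, is not among these values. No paired analysis was possible because the library columns match no label; leaving out a library, another pseudocount and a filter on library values were not run for the same reason. The error of the fit is the only limit on precision that could be given.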
